A study of Homo sapiens with 9 samples.

Results

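The zinc finger genes ZNF677, ZNF662 and ZNF300 were examined in HSF-6, an established line of human embryonic stem cells, grown with and without butyrate and DZNep. They lie on chromosomes 19, 3 and 5, outside the zinc finger gene cluster at 19p12. The members were all probe sets annotated to 1 of these 3 genes and to no other gene, which gave 6 of the 54675 probe sets of the array: 4 for ZNF677, 1 for ZNF662 and 1 for ZNF300. These 3 genes, of 19775 genes on the array, were chosen by their low signal in untreated cells with the results of these arrays in view, so their differences from untreated cells are given as a description and without a test. The 9 arrays formed 3 groups of 3: subline HSF-6(S9) with butyrate and DZNep, subline HSF-6(8) with butyrate and DZNep, and subline HSF-6(8) as control with no agent. Cultures went through 11 passages, with 6 days of growth. Butyrate inhibits histone deacetylases, and DZNep (3-deazaneplanocin A) inhibits S-adenosylhomocysteine hydrolase, which in turn limits methyltransferases. No untreated HSF-6(S9) arrays were analysed here, so in the comparison of treated HSF-6(S9) with untreated HSF-6(8) the subline and the treatment cannot be told apart.

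Zinc finger genes of this class encode proteins with tandem zinc fingers that bind DNA and, in many of them, an N-terminal KRAB domain. The KRAB domain recruits the corepressor TRIM28, which brings the histone H3K9 methyltransferase SETDB1 and heterochromatin proteins to the bound site. In pluripotent cells this system is known for silencing endogenous retroviruses and other transposable elements. ZNF677 belongs to a family cluster on the long arm of chromosome 19 and is known as a gene silenced by promoter methylation in several cancers. ZNF300 has been studied in blood cell differentiation. No specific role of ZNF662 is stated here.

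The 300 bases around the annotated start of each gene (250 before it and 50 after, RefSeq, GRCh38.p14) are shown because the 3 genes had low signal in the same untreated arrays and higher signal in the same treated arrays. For ZNF677, 2 promoter windows were listed, and only the one at the annotated gene start is shown. Which of them gives the measured transcript was not examined. CpG dinucleotides are in capitals. The promoter windows are chr19:53254824-53255123 on the minus strand for ZNF677, chr3:42905892-42906191 on the plus strand for ZNF662 and chr5:150904931-150905230 on the minus strand for ZNF300.
ZNF677: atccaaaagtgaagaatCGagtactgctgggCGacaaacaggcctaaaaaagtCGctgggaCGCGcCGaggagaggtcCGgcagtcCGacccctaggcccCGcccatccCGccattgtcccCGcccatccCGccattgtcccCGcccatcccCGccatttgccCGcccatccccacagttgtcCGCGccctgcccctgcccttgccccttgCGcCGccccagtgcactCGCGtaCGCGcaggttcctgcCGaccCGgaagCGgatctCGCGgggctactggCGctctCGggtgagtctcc
ZNF662: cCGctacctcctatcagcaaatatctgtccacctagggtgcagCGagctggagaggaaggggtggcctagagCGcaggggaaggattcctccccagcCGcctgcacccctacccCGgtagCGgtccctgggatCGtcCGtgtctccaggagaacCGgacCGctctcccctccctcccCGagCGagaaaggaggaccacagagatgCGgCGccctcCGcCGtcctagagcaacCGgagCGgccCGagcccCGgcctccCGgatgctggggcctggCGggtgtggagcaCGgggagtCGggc
ZNF300: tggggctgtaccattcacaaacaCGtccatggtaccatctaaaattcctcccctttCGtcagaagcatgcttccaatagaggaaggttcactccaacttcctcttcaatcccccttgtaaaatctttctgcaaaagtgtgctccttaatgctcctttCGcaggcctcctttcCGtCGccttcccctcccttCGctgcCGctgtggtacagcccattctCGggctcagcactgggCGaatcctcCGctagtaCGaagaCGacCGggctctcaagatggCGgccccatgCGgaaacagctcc
The ZNF677 window held 30 CpG and had a GC content of 67.7%, the ZNF662 window held 24 CpG with 69.0%, and the ZNF300 window held 15 CpG with 54.3%. Over all 35116 listed windows of this length the median was 14 CpG, with quartiles of 4 and 28, and 77.6%, 66.1% and 51.1% of windows held fewer CpG than those of ZNF677, ZNF662 and ZNF300. Short motifs were searched on both strands and chosen after the sequences were seen. The GC box GGGCGG occurred 5 times in the ZNF677 window and 0 times in the other two, against at least once in 45% of all windows. The ETS core CCGGAAG occurred once in the ZNF677 window (10.3% of all windows hold it), and the YY1 core AANATGGC occurred once in the ZNF300 window (6.58% of all windows). No match overlapped a match of another motif. These matches describe the letters only, and the arrays measured neither DNA methylation nor binding of a factor.

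All 9 arrays expressed the stem cell markers: 11 of the 12 listed genes were measured (among them SOX2, NANOG and LIN28A), and all 11 lay above the array's median signal on every array. None was called in either comparison (limma; 1 in HSF-6(S9) and 0 in HSF-6(8) at an unadjusted p under 0.05). Over all tested genes 1.18% were called in HSF-6(S9) and 0.843% in HSF-6(8), so 0 of 11 is near this background. Of all 13518 tested genes, 1910 in HSF-6(S9) and 1331 in HSF-6(8) had an unadjusted p under 0.05 (limma). These are the background for each such count given below. Among the 11 markers the largest differences in HSF-6(8) were -0.55 for PODXL and -0.48 for NANOG. Their summed signal was 134568 to 224654 in treated HSF-6(S9), 142814 to 155005 in treated HSF-6(8) and 150918 to 199190 in untreated HSF-6(8). Median signals of single arrays ran from 64.8 to 82.9, and with 3 arrays a group all values are imprecise. The third array of each group stood apart in 18S ribosomal RNA, with median signals of 1517, 805 and 1030 in treated HSF-6(S9), treated HSF-6(8) and untreated HSF-6(8), against 285 to 542 on the other 6 arrays. Nothing in the labels tells whether the 3 arrays of each group came from separate cultures, so SDs and p-values describe the spread of these arrays only, and that spread may be technical. A higher signal in bulk RNA can come from more cells with the transcript or from more transcript per cell, which cannot be told apart here.

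ZNF677 was low in every untreated array and higher in every treated array. Its probe set 228974_at had signals of 274, 542 and 318 in treated HSF-6(S9), 302, 703 and 264 in treated HSF-6(8), and 26.8, 31.3 and 15.0 in untreated HSF-6(8). The treated groups overlapped each other, and the lowest treated array was 8.43 times the highest untreated one. Means were 378 ± 144, 423 ± 243 and 24.4 ± 8.41 (SD, n = 3 each) in the same order of groups. With 16 added to each signal before taking log2, treated HSF-6(S9) exceeded untreated HSF-6(8) by 3.25 ± 0.38 and treated HSF-6(8) exceeded it by 3.33 ± 0.38 (log2 difference ± SE, limma). With 1 and 64 added the differences were 3.90 and 2.28 in HSF-6(S9) and 3.98 and 2.36 in HSF-6(8).

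ZNF662 had the lowest untreated signals of the 3 genes' main probe sets relative to its own treated arrays. Probe set 228538_at gave 140, 460 and 236 in treated HSF-6(S9), 146, 354 and 140 in treated HSF-6(8), and 2.17, 4.34 and 7.37 in untreated HSF-6(8). Every treated array was above every untreated array, the lowest treated one being 19 times the highest untreated one. Means were 279 ± 164 in treated HSF-6(S9), 213 ± 122 in treated HSF-6(8) and 4.63 ± 2.61 in untreated HSF-6(8) (SD, n = 3 each). The log2 differences from untreated HSF-6(8) were 3.69 ± 0.43 in HSF-6(S9) and 3.36 ± 0.43 in HSF-6(8) with 16 added. The size depended strongly on the added number, at 5.58 and 2.21 in HSF-6(S9) and 5.22 and 1.93 in HSF-6(8) with 1 and 64 added.

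ZNF300 showed the smallest of the 3 differences from untreated cells, and in treated HSF-6(8) a wide spread between arrays. Probe set 228144_at had signals of 158, 216 and 254 in treated HSF-6(S9), 148, 399 and 77.8 in treated HSF-6(8), and 5.84, 35.4 and 18.1 in untreated HSF-6(8). The treated and untreated arrays did not overlap, but the lowest treated array was only 2.20 times the highest untreated one. Means were 209 ± 48.5 in treated HSF-6(S9), 208 ± 169 in treated HSF-6(8) and 19.8 ± 14.8 in untreated HSF-6(8) (SD, n = 3 each). The log2 differences from untreated HSF-6(8) were 2.72 ± 0.50 in HSF-6(S9) and 2.46 ± 0.50 in HSF-6(8). In HSF-6(8) the difference was 1.88 without the second treated array and 2.95 without the third. With 1 and 64 added, the differences were 3.62 and 1.71 in HSF-6(S9) and 3.32 and 1.54 in HSF-6(8).

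**Figure D1:**
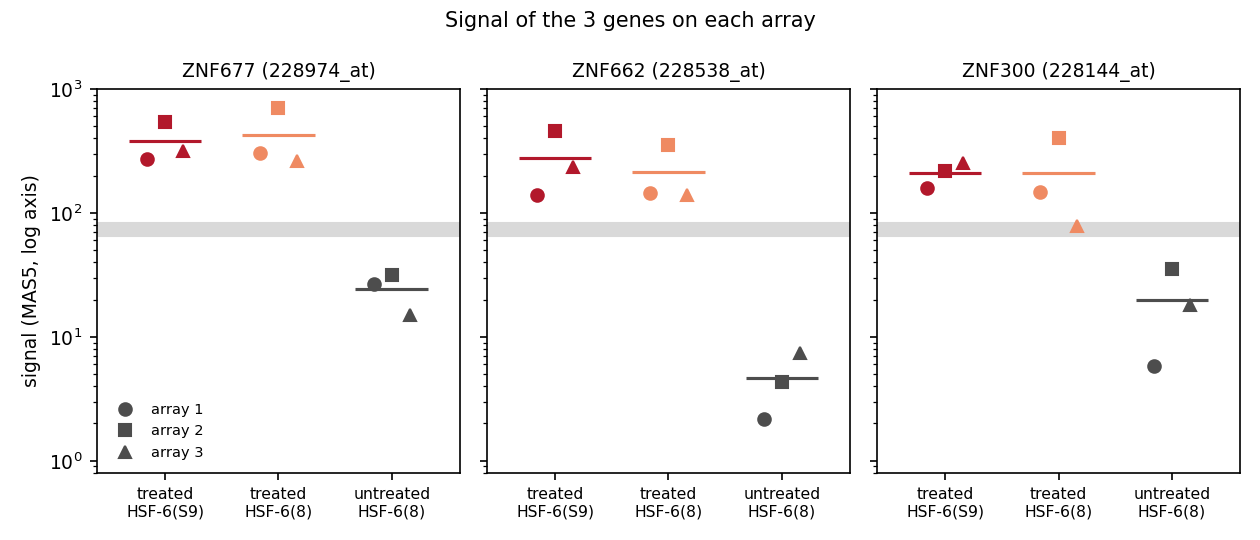
Signal on each of the 9 arrays (log axis) for the main probe sets of ZNF677, ZNF662 and ZNF300, with groups from left to right treated HSF-6(S9), treated HSF-6(8) and untreated HSF-6(8). Points are arrays (the symbol gives the array number), bars are group means and the grey band spans the median signals of the 9 arrays, 64.8 to 82.9; every treated point lies above every untreated point of the same gene.

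In each comparison with untreated HSF-6(8), the arrays of all 3 genes did not overlap between the groups. Among the 13518 genes tested, 11.3% were higher without overlap in treated HSF-6(S9) and 10.3% in treated HSF-6(8); the rule used this contrast, so nothing is read from the count. Of all tested genes, 0.607% were called higher in both treated groups. Both comparisons share the 3 untreated arrays. By size of the log2 difference, ZNF662, ZNF677 and ZNF300 stood at places 6, 16 and 37 of all tested genes in HSF-6(S9), and at places 12, 13 and 43 in HSF-6(8). In untreated cells the 3 main probe sets lay between percentiles 3.11 and 38.4 of all probe sets of their array, and in treated cells between 48.9 and 80.1. Each of the 3 passed the filter on low values (at least 3 of 9 arrays above their own median) through treated arrays alone: 6 treated arrays for ZNF677, 6 for ZNF662 and 5 for ZNF300 lay above the median, and 0 untreated arrays did. The table carries no detection calls, so signals this low in untreated cells cannot be told from no transcript.

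The 2 treated sublines are the comparison that holds no untreated array, although the treated arrays may also have been in view when the genes were picked. For ZNF677 the difference (HSF-6(S9) minus HSF-6(8), both treated) was -0.08 ± 0.38, with a 95% interval of -0.93 to 0.77 on the log2 scale. The difference was 0.33 ± 0.43 for ZNF662 (interval -0.63 to 1.30) and 0.26 ± 0.50 for ZNF300 (interval -0.87 to 1.38). None of the 3 passed the test over all genes (limma, adjusted p = 0.989 for each), and their sizes lay within the spread between arrays of a group. In this comparison 0.0074% of all tested genes were called (adjusted p under 0.05 and at least 2-fold), 2.74% were higher in HSF-6(S9) without overlap, and without the filter 0.339% were at least 2-fold higher. Ordered by level, each gene thus had its 2 treated groups as neighbours that did not differ beyond their spread, and its untreated group lowest.

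The second array of treated HSF-6(8) was the highest of its group for all 3 genes, by 0.85 for ZNF677, 0.81 for ZNF662 and 1.16 for ZNF300 above the group mean of log2 values. The second array of treated HSF-6(S9) was also the highest of its group for ZNF677 (0.56 above the group mean) and ZNF662 (0.84), whereas for ZNF300 the third array was the highest (0.28). The third array of treated HSF-6(8) was the lowest of its group for all 3 genes, at 0.51, 0.43 and 0.98 below the group mean for ZNF677, ZNF662 and ZNF300. That same array had the highest summed signal of the 9 endoderm markers, 12542, against 1665 and 2287 on the other arrays of treated HSF-6(8). Endoderm sums were 1802 to 2344 in treated HSF-6(S9) and 816 to 1376 in untreated HSF-6(8), with 8 or 9, 9, and 3 to 6 of the 9 markers above the array median in treated HSF-6(S9), treated HSF-6(8) and untreated HSF-6(8). None of the 9 was called with the main settings (limma; 6 in HSF-6(S9) and 7 in HSF-6(8) at an unadjusted p under 0.05). Of all 13518 tested genes, 1.18% were called in HSF-6(S9) and 0.843% in HSF-6(8). An unadjusted p under 0.05 was found for 1910 and 1331 of them (limma). Under alternative settings, 0 to 3 of the 9 markers were called in HSF-6(S9) and 0 to 4 in HSF-6(8). The lowest adjusted p with the main settings was 0.0589, for APOA2 in HSF-6(8) (limma). The largest differences in HSF-6(8) were 3.04 ± 0.63 for GATA6 (adjusted p = 0.0706) and 2.78 ± 0.72 for TTR (adjusted p = 0.145), beside 1.84 and 2.55 in HSF-6(S9). GATA6 was called in HSF-6(8) without the first or the third treated HSF-6(8) array (limma adjusted p of 0.0291 and 0.00658), and in HSF-6(S9) without the third array of treated HSF-6(8) (0.00532). The array with the strongest endoderm signal was thus the lowest treated HSF-6(8) array for each of the 3 genes. It also had the highest stromal marker sum (19948) and the lowest neuroectoderm marker sum (5061) of its group, and the highest median signal of all arrays (82.9). In treated HSF-6(S9) the order differed: the first array had the lowest endoderm sum, 1802, and was the lowest for each of the 3 genes. A link between endoderm signal and the 3 genes was not tested. Without the third array of every group, the differences from untreated HSF-6(8) were 3.16 in HSF-6(S9) and 3.41 in HSF-6(8) for ZNF677, 3.83 and 3.67 for ZNF662, and 2.58 and 2.96 for ZNF300.

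Other cell type markers were set beside the genes in the same way. Of 7 neuroectoderm markers 6 were measured, and their summed signal was 9250 to 10329 in treated HSF-6(S9), 5061 to 9626 in treated HSF-6(8) and 4017 to 5772 in untreated HSF-6(8). The markers above the array median numbered 4 or 5, 4, and 1 or 2 in the same order of groups. Over all tested genes 1.18% were called in HSF-6(S9) and 0.843% in HSF-6(8). At an unadjusted p under 0.05 (limma) there were 4 of 4 tested neuroectoderm markers in HSF-6(S9) and 3 in HSF-6(8). Among 5 tested stromal markers there was 1 in each comparison. PAX3, a neural crest regulator, was the only called gene of the 4 tested: it averaged 610 ± 407 in treated HSF-6(S9), 364 ± 120 in treated HSF-6(8) and 36.3 ± 12.1 in untreated HSF-6(8) (SD, n = 3 each), with differences of 3.34 ± 0.51 in HSF-6(S9) (limma adjusted p = 0.0170) and 2.85 ± 0.51 in HSF-6(8) (adjusted p = 0.0405). The call was lost in HSF-6(S9) without any 1 of the 3 untreated arrays or the first array of treated HSF-6(S9) (limma adjusted p from 0.0518 to 0.0636). It was also lost there with probe sets averaged and with the first and second arrays only (limma adjusted p up to 0.191). In HSF-6(8) it was lost without any 1 of the 6 HSF-6(8) arrays or the first array of treated HSF-6(S9) (limma adjusted p from 0.0738 to 0.129). The stromal markers summed to 12080 to 12871 in treated HSF-6(S9), 12030 to 19948 in treated HSF-6(8) and 9318 to 9816 in untreated HSF-6(8), over 7 measured genes. They did not all go one way and none of the 5 tested was called: COL1A1, a collagen chain gene, averaged 7012 ± 2533 in treated HSF-6(S9), 9383 ± 1067 in treated HSF-6(8) and 4383 ± 559 in untreated HSF-6(8), while the surface marker THY1 averaged 1323 ± 417, 1815 ± 1371 and 2660 ± 1073 in the same order (SD, n = 3 each). The 3 measured blood markers of 5 listed (PTPRC, SPI1 and CD34) summed to at most 160 on any array, with at most 1 of them above the array median. No marker was at 0 on any array, the lowest being a stromal marker at 1.29. The part of these marker shifts in the levels of the 3 genes was not tested.

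The 4 probe sets of ZNF677 did not all show the same pattern. Probe set 1560562_a_at had signals of 24.8, 51.7 and 144 in treated HSF-6(S9), 30.4, 108 and 79.9 in treated HSF-6(8), and 5.37, 0.961 and 2.66 in untreated HSF-6(8). Probe set 1569039_s_at had 12.8, 44.2 and 42.5 in treated HSF-6(S9), 14.7, 29.3 and 33.5 in treated HSF-6(8), and 4.73, 2.31 and 6.13 in untreated HSF-6(8). Both were higher on every treated array than on any untreated array, as 228974_at was. The fourth, 238254_at, had 14.5, 31.8 and 11.0 in treated HSF-6(S9), 22.6, 10.4 and 37.6 in treated HSF-6(8), and 36.3, 13.6 and 13.1 in untreated HSF-6(8), and its groups overlapped. The log2 differences from untreated HSF-6(8) were 2.01 ± 0.50 in HSF-6(S9) and 2.12 ± 0.50 in HSF-6(8) for 1560562_a_at, 1.20 ± 0.32 and 1.01 ± 0.32 for 1569039_s_at, and -0.06 ± 0.36 and 0.09 ± 0.36 for 238254_at (SE from a fit of all probe sets without a filter). Only 228974_at of these 4 passed the filter on low values. RefSeq lists 17 transcripts of ZNF677, 2 of ZNF662 and 4 of ZNF300, and which of them each probe set matches was not examined here.

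**Figure D2:**
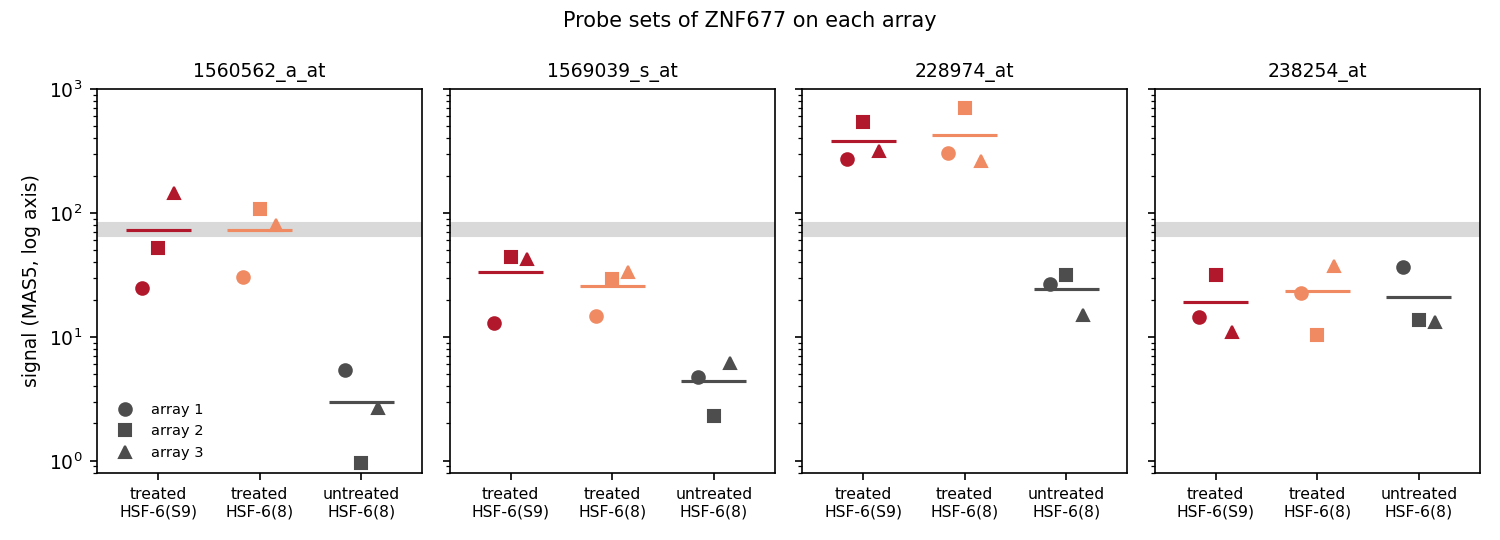
Signal on each array (log axis) for the 4 probe sets of ZNF677, with groups from left to right treated HSF-6(S9), treated HSF-6(8) and untreated HSF-6(8), points for arrays, bars for means and a grey band for the array medians. In 1560562_a_at, 1569039_s_at and 228974_at all treated points lie above all untreated points, while in 238254_at the 3 groups overlap.

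The genes next to the 3 members were listed from the RefSeq gene table, as all genes whose start lies within 500 kb of the member's start. Of 96 such genes around ZNF677, 12 could be tested, and they were all zinc finger genes or pseudogenes of the same cluster. None was called in either comparison with untreated HSF-6(8) (limma; 2 in HSF-6(S9) and 2 in HSF-6(8) at an unadjusted p under 0.05), and their log2 differences ranged from -0.49 to 1.22 in HSF-6(S9) and from -0.21 to 1.33 in HSF-6(8). The largest belonged to the pseudogene ZNF702P, at 1.22 ± 0.48 in HSF-6(S9) (adjusted p = 0.283) and 1.33 ± 0.48 in HSF-6(8) (adjusted p = 0.346). ZNF600 followed in HSF-6(8) with 0.81 ± 0.23 (adjusted p = 0.186) and had 0.05 ± 0.23 in HSF-6(S9). ZNF665, which lies within this window, averaged 884 ± 149 in treated HSF-6(S9), 910 ± 134 in treated HSF-6(8) and 926 ± 250 in untreated HSF-6(8) (SD, n = 3 each).

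Around ZNF662, 13 of 35 neighbouring genes could be tested and none was called in either comparison (limma; 2 in HSF-6(S9) and 1 in HSF-6(8) at an unadjusted p under 0.05). Their log2 differences ran from -0.83 to 0.72 in HSF-6(S9) and from -0.44 to 0.15 in HSF-6(8). CCDC13, a coiled-coil protein gene, had the largest in HSF-6(8) at -0.44 ± 0.37 (adjusted p = 0.854), and VIPR1, a receptor for vasoactive intestinal peptide, had -0.41 ± 0.18 (adjusted p = 0.507). In HSF-6(S9) VIPR1 had the largest, at -0.83 ± 0.18 (limma adjusted p = 0.0674, and from 0.0403 to 0.212 over the alternatives), and was below 2-fold under each of them. KRABD1, a nearby gene that encodes a KRAB domain, averaged 93.7 ± 21.3 in treated HSF-6(S9), 51.7 ± 12.1 in treated HSF-6(8) and 52.3 ± 20.6 in untreated HSF-6(8) (SD, n = 3 each). Around ZNF300, 14 of 39 neighbours were tested and none was called (limma; 2 in HSF-6(S9) and 2 in HSF-6(8) at an unadjusted p under 0.05). Their differences lay between -0.22 and 0.64 in HSF-6(S9) and between -0.26 and 0.78 in HSF-6(8). The largest in HSF-6(8) were 0.78 ± 0.23 for GPX3, a secreted glutathione peroxidase gene (adjusted p = 0.224), and 0.76 ± 0.19 for ANXA6, an annexin gene (adjusted p = 0.136). The related transcript ZNF300P1 did not pass the filter on low values and averaged 5.64 ± 2.10 in treated HSF-6(S9), 25.6 ± 19.3 in treated HSF-6(8) and 23.2 ± 17.95 in untreated HSF-6(8).

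Over all tested genes, 1.18% were called in treated HSF-6(S9) and 0.843% in treated HSF-6(8) against untreated HSF-6(8), so counts of 0 among 12, 13 and 14 neighbours are near this background. At an unadjusted p under 0.05 (limma) there were 1910 and 1331 of all 13518 tested genes in the same order. The median log2 differences of the neighbours were 0.13 and 0.17 for ZNF677, 0.01 and -0.08 for ZNF662, and 0.24 and 0.17 for ZNF300 in HSF-6(S9) and HSF-6(8), beside 0.01 and 0.00 over all tested genes.

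**Figure D3:**
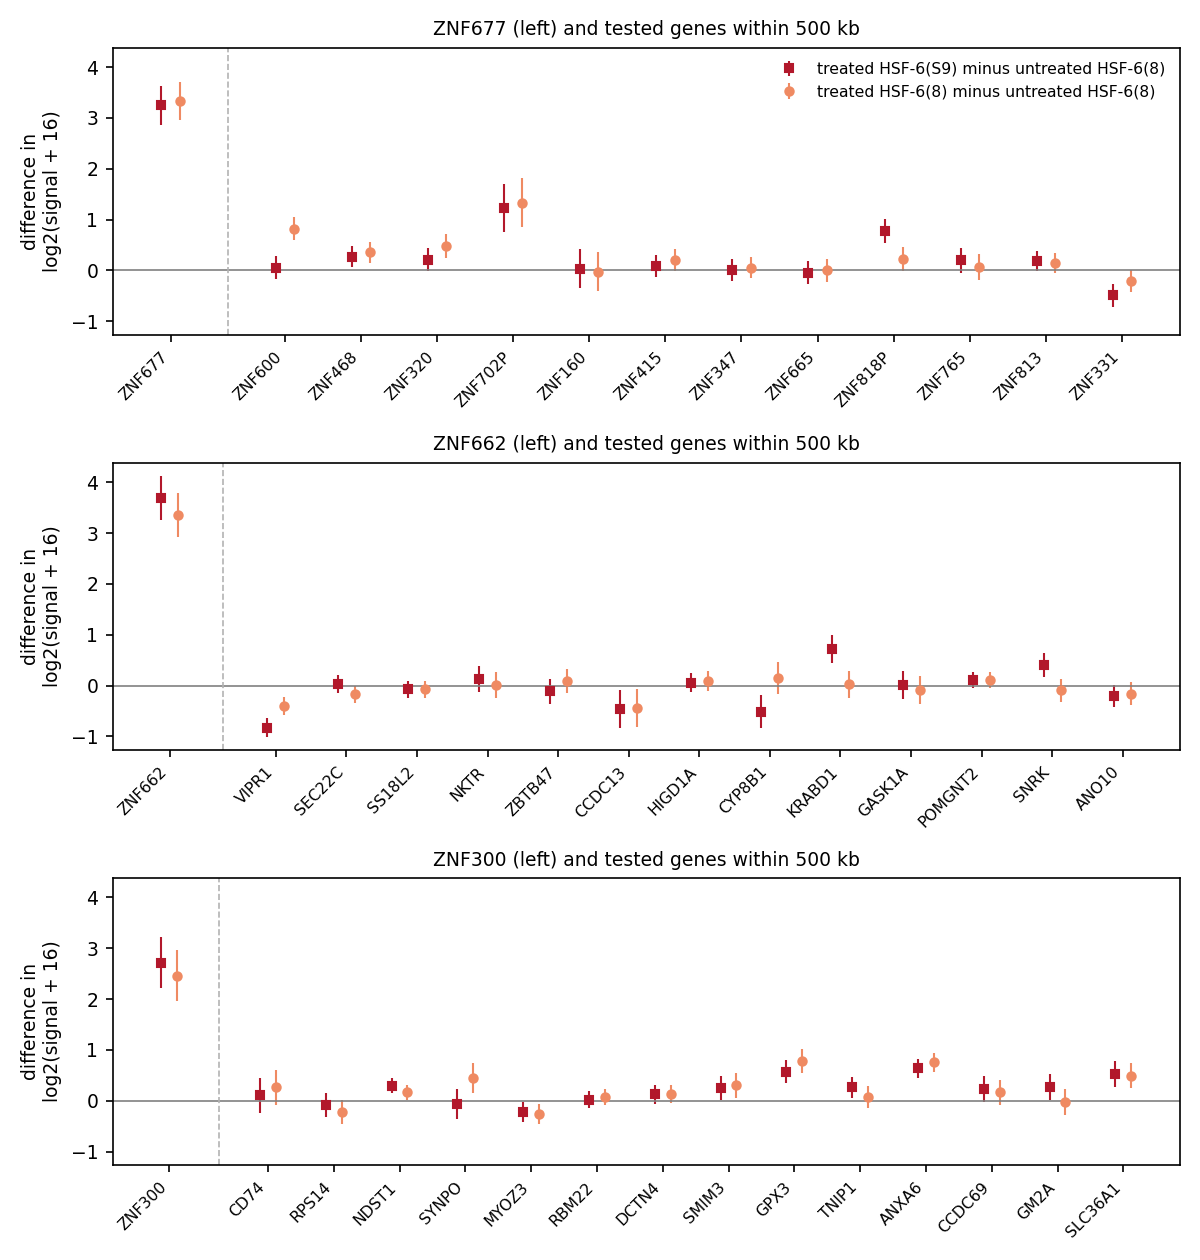
Difference in log2(signal + 16) from untreated HSF-6(8), with SE, for each of the 3 genes (left of the dashed line) and the tested genes within 500 kb of it in chromosomal order. Red squares are treated HSF-6(S9) and orange circles treated HSF-6(8); the neighbours lie between -0.83 and 1.33 and the 3 genes between 2.46 and 3.69.

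The machinery that KRAB zinc finger proteins recruit was listed as 20 genes, all of which were tested: the corepressor TRIM28, the methyltransferases SETDB1, SUV39H1, SUV39H2, EHMT1 and EHMT2, heterochromatin protein genes, chromatin remodellers and the HUSH complex genes among them. None was called in either comparison with untreated HSF-6(8) or between the treated sublines, under any alternative run (limma; 2 in HSF-6(S9) and 0 in HSF-6(8) at an unadjusted p under 0.05 against untreated cells). Over all tested genes 1.18% were called in HSF-6(S9) and 0.843% in HSF-6(8), so 0 of 20 is near this background. The median log2 difference of the 20 genes was 0.04 in HSF-6(S9) and -0.03 in HSF-6(8). TRIM28 averaged 12037 ± 4718 in treated HSF-6(S9), 10413 ± 1215 in treated HSF-6(8) and 11852 ± 2674 in untreated HSF-6(8), and SETDB1 averaged 2052 ± 647, 1646 ± 308 and 1431 ± 205 in the same order (SD, n = 3 each). The largest differences in HSF-6(8) were 0.47 ± 0.30 for MORC2, an ATPase gene of the HUSH pathway (adjusted p = 0.740), and -0.42 ± 0.30 for CBX5, which encodes heterochromatin protein 1 alpha (adjusted p = 0.795).

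The 40 zinc finger genes listed for the cluster on the long arm of chromosome 19 around ZNF677 gave 30 tested genes, of which none was called in either comparison (limma; 5 in HSF-6(S9) and 4 in HSF-6(8) at an unadjusted p under 0.05). Beside the 1.18% and 0.843% called over all tested genes in HSF-6(S9) and HSF-6(8), 0 of 30 is near the background. The median log2 differences of the 30 genes were 0.04 in HSF-6(S9) and 0.17 in HSF-6(8). ZNF528 had the largest, at 2.11 ± 0.44 in HSF-6(S9) (adjusted p = 0.0609) and 2.09 ± 0.44 in HSF-6(8) (adjusted p = 0.0753). Its signals were 194, 188 and 169 in treated HSF-6(S9), 147, 198 and 203 in treated HSF-6(8), and 16.9, 11.2 and 94.0 in untreated HSF-6(8). Without the third untreated array, whose signal was 94.0, ZNF528 was called with 2.74 in HSF-6(S9) (adjusted p = 0.000706) and 2.72 in HSF-6(8) (adjusted p = 0.000567). It was also called with 64 added, with the third arrays as a batch and with the first and second arrays only in both comparisons, and with the replicate block in HSF-6(S9) (limma adjusted p = 0.0482). ZNF578, another gene of the list, was called in HSF-6(8) when low values were not filtered.

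Among all zinc finger genes named ZNF and outside 19p12, 441 were on the array, and 82 of them had a mean untreated signal below 69.3, the mean of the untreated arrays' medians. The rule that chose the members set no number for a low signal. Of the 3 members ZNF677 had the highest mean untreated signal, 24.4. Examples of genes that lay above it are ZNF562 with 32.8, ZNF667 with 33.8, ZNF703 with 40.6 and ZNF528 with 40.7. Examples that lay below it are ZNF77 with 3.20, ZNF781 with 17.1 and ZNF439 with 19.4. With no filter on low values, 10 of the 82 genes were at least 2-fold higher in both treated groups on the log2(signal + 16) scale. They were the 3 members and the 7 example genes just named. Leaving out the members, which were chosen with these results in view, 7 of 79 genes were at least 2-fold higher in both. Of all 6966 genes with an untreated mean below 69.3, 202 (2.90%) were. Over all 19775 genes without the filter, 2.82% were at least 2-fold higher in HSF-6(S9) and 2.80% in HSF-6(8). The median difference over the 82 genes was 0.23 in HSF-6(S9) and 0.33 in HSF-6(8).

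By the mean of both differences ZNF662 and ZNF677 came first and second of the 82 genes, and ZNF703, a developmental zinc finger gene of a different class, stood between them and ZNF300. ZNF703 averaged 473 ± 338 in treated HSF-6(S9), 245 ± 56.8 in treated HSF-6(8) and 40.6 ± 29.9 in untreated HSF-6(8) (SD, n = 3 each). ZNF528, ZNF77 and ZNF562 came after ZNF300. ZNF77 had signals of 40.8, 119 and 74.3 in treated HSF-6(S9), 27.2, 148 and 43.0 in treated HSF-6(8), and 2.97, 3.79 and 2.83 in untreated HSF-6(8), so its second arrays were the highest of both treated groups, as for ZNF677 and ZNF662. Of the 382 zinc finger genes outside 19p12 that were tested, the members left out, 2 were called higher in HSF-6(S9) and 1 in HSF-6(8), against 0.895% and 0.747% of all tested genes. ZNF562 was called in both, at 1.89 ± 0.30 in HSF-6(S9) (limma adjusted p = 0.0203) and 2.12 ± 0.30 in HSF-6(8) (adjusted p = 0.0126). ZNF703 was called in HSF-6(S9) alone, at 3.02 ± 0.48 (adjusted p = 0.0199), and had 2.30 ± 0.48 in HSF-6(8) (adjusted p = 0.0706).

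Single arrays decided some of these calls. ZNF562 was not called in HSF-6(8) without its second treated array (adjusted p = 0.0574), nor in HSF-6(S9) without the first or second untreated array (0.0648 and 0.0576) or the first or the third treated HSF-6(S9) array (0.0582 and 0.0506). Over all 17 alternatives, the call of ZNF562 in HSF-6(S9) was kept in 12. ZNF703 was not called in HSF-6(S9) without the first or second untreated array (adjusted p = 0.0729 and 0.0730) or the second treated HSF-6(S9) array (0.0524). In HSF-6(8) ZNF703 was called without the third array of treated HSF-6(S9) (limma adjusted p of 0.0227) and under a replicate block (0.0108). It was also called there with the third arrays as a batch (0.00619) and with the first and second arrays only (0.0136).

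**Figure D4:**
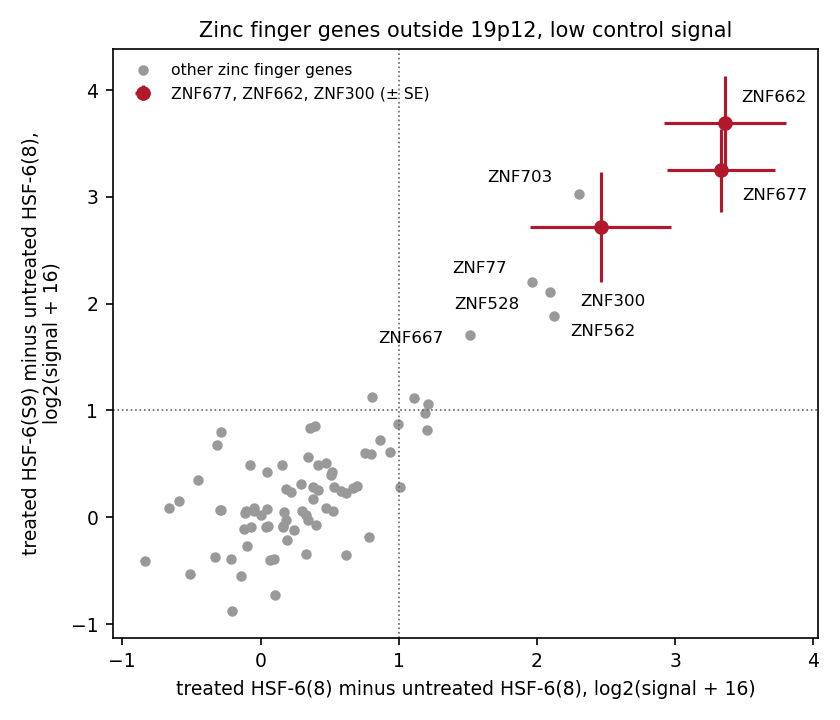
Each point is 1 of the 82 zinc finger genes outside 19p12 with a mean untreated signal below 69.3; the axes give the difference in log2(signal + 16) of treated HSF-6(8) (horizontal) and treated HSF-6(S9) (vertical) from the same 3 untreated arrays, so the axes are not independent. Red points with SE are ZNF677, ZNF662 and ZNF300, dotted lines mark 2-fold, and 10 genes lie above both lines.

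At 19p12 itself, 17 of 36 listed zinc finger genes were tested and 2, ZNF682 and ZNF626, were called higher in both treated groups. Over all tested genes 0.607% were. The log2 differences of ZNF682 and ZNF626 were 4.98 ± 0.30 and 3.59 ± 0.32 in HSF-6(S9), and 5.08 ± 0.30 and 3.78 ± 0.32 in HSF-6(8). ZNF253 was not called, at 0.90 ± 0.28 in HSF-6(S9) (limma adjusted p = 0.170) and 1.07 ± 0.28 in HSF-6(8) (0.145). It was called in both comparisons with 64 added, with the 75th percentile filter, with probe sets averaged and without any 1 of the untreated arrays.

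The genes whose profiles were most like those of the 3 members were found by the root mean square difference over the 9 arrays between log2(signal + 16) values, each centred on its untreated mean. Nearest to ZNF677 were TCEAL7 (0.35), ZNF662 (0.38), FAM90A1 (0.42), MAGEA8 (0.47) and ENPP2 (0.50). Nearest to ZNF662 were ZNF677 (0.38), FAM90A1 (0.50), DPPA5 (0.52), MAGEA8 (0.53) and ASTE1 (0.53). ZNF677 was thus the nearest of all tested genes to ZNF662, and ZNF662 the second nearest to ZNF677. Nearest to ZNF300 were C2orf74-DT (0.38), EYA1 (0.42), HSPB2 (0.51), DPEP3 (0.57) and RIN2 (0.58). ZNF300 was farther from the other two members, at 0.72 from ZNF677 and 0.90 from ZNF662. All these genes were higher in both treated groups, and the likeness is a description over 9 arrays that share the same 3 groups.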

How the data were processed

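Total RNA of 9 samples was isolated, amplified with a MessageAmp Premier kit and biotin-labelled, per the labels. The authors deposited 1 linear intensity for each probe set and array, made with Affymetrix Expression Console and MAS5 per the submitters' processing notes, which name no versions. Means trimmed by 2% at each end were 500.061 to 500.076 on the 9 arrays. Of 54675 probe sets, 62 were controls, 41091 mapped to a single gene in the platform annotation, 1801 to several and 11721 to none; 41037 of the single-gene ones were matched to the RefSeq gene table.

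With 16 added, values were taken to log2. Probe sets above the array median on at least 3 of 9 arrays were kept, and each gene took its probe set of highest mean signal (13518 genes). One linear model over the 3 groups was fitted with limma 3.58.1 in R 4.3.3 (lmFit, eBayes; 6 residual and 3.50 prior degrees of freedom). Tests were two-sided, with Benjamini-Hochberg adjustment across the 13518 genes. A gene was called at an adjusted p under 0.05 and at least 2-fold. The steps were tested on simulated data.

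The prime marks of the titles were numbered 1 to 3. Same-numbered arrays correlated after removal of group means, at 0.21, 0.26 and 0.49 between treated and untreated HSF-6(8). Between the treated sublines the values were 0.18, 0.20 and 0.25. In treated HSF-6(S9) with untreated HSF-6(8), the value was 0.34 for the third arrays but -0.03 and 0.08 for the first and second. A replicate block was therefore run as an alternative. Other alternatives were the added number, the filter, quantile normalization, averaging the probe sets of each gene, a block for the third arrays, and each array left out.

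The members, gene lists and tests were chosen with earlier results of these data known. Named genes were the members with all their probe sets, up to 4 called or else the 2 largest changes of each list and neighbourhood, the 5 most alike profiles, and the low-signal zinc finger genes next in rank. TRIM28, SETDB1, KRABD1, ZNF665, ZNF300P1, ZNF578, ZNF667, ZNF781, ZNF439, ZNF253 and APOA2 were named in addition, after their values were seen.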

Additional observations from a re-analysis of the deposited data

How the results depend on the processing

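The differences of ZNF677, ZNF662 and ZNF300 from untreated HSF-6(8) stayed positive under all 17 alternatives that gave a value. None of the 3 passed the 75th percentile filter, which gave no value for them. The added number moved them most. With 1 added, ZNF677, ZNF662 and ZNF300 had 3.90, 5.58 and 3.62 in HSF-6(S9) and 3.98, 5.22 and 3.32 in HSF-6(8). With 64 added they had 2.28, 2.21 and 1.71 in HSF-6(S9) and 2.36, 1.93 and 1.54 in HSF-6(8). When single arrays were left out, the ranges were 2.97 to 3.44, 3.27 to 4.08 and 2.41 to 3.02 in HSF-6(S9), and 2.91 to 3.59, 2.95 to 3.58 and 1.88 to 2.95 in HSF-6(8).

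Between the treated sublines no alternative called any of the 3 genes (adjusted p from 0.848 to 1), and the sign was not fixed. Without single arrays ZNF677 ranged from -0.36 to 0.34, ZNF662 from -0.087 to 0.74 and ZNF300 from -0.24 to 0.84. With the first and second arrays only, an alternative chosen after seeing the data, ZNF300 had -0.38. The replicate block left the differences at -0.08, 0.33 and 0.26 and called none of the 3.

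The number of genes called in treated against untreated HSF-6(8), 114, became 65 with the 75th percentile filter and 191 when the third arrays formed a batch, and 56 to 121 without single arrays. In treated HSF-6(S9) against untreated HSF-6(8), 160 became 96 with no filter, 98 with the 75th percentile filter, 255 with the replicate block and 298 with the batch block, and 55 to 243 without single arrays. Between the sublines the 1 call became 0 with 64 added, with no filter, with the 75th percentile filter and with the first and second arrays only, and 0 to 1 without single arrays. The cause of these moves was not tested.

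Some named genes that were not called in the comparison changed sign and were called under none of these settings. In HSF-6(S9), leaving out single arrays gave -0.17 to 0.19 for ZNF600, -0.47 to 0.072 for CBX5, -0.32 to 0.19 for TRIM28 and -0.37 to 0.032 for PODXL, and TRIM28 had 0.016 with the first and second arrays only. In HSF-6(8), it gave -0.82 to 0.0084 for CCDC13 and -0.26 to 0.19 for KRABD1, which had -0.042 with quantile normalization.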
